A study of Homo sapiens with 6 samples.

Results

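The transcripts of 10 receptor tyrosine kinases were examined in MDA-MB-435 cells with and without knockdown of ZCCHC24. They were ERBB2, ERBB3, EGFR, MET, KIT, IGF1R, INSR, FGFR1, PDGFRB and TYRO3, taken by gene symbol from a table of 57150 genes. Each symbol had a single row. MDA-MB-435 is an established human cancer cell line whose labels give breast as the tissue; as background, genotyping has since assigned it to a melanoma origin. The 2 groups were 3 libraries labelled ZCCHC24 CTRL and 3 labelled ZCCHC24 KD, and the sources used here do not give the agent used for the knockdown, what the control cells received or the time after treatment. Nothing in the labels says whether libraries of a group came from separate cultures, so the spread behind each p-value is that of these libraries and may be technical.

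Receptor tyrosine kinases are membrane proteins that bind a ligand outside the cell, pair up, and phosphorylate each other and docking proteins inside it. Adaptors such as GRB2 and FRS2 then pass the signal to the RAS-ERK and PI3K-AKT pathways. In cells of the melanocyte lineage KIT and its ligand are needed for development, ERBB3 answers neuregulins, and MET is a known target of the lineage factor MITF.

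The catalytic loop of the kinase domain differs between ERBB3 and the other receptors read here, and its coding sequence is shown here because the results turn on ERBB3 and its relatives. The 33 bases (11 codons) beginning at the loop's conserved histidine codon were read from GENCODE v29 transcripts on the GRCh38 build. The capitals mark the codon of the catalytic aspartate, or of the residue in its place.
ERBB3: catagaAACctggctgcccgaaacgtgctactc
ERBB2: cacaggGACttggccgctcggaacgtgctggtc
EGFR: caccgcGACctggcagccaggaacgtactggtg
MET: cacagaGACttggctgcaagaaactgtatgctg
TYRO3: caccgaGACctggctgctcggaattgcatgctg
IGF1R: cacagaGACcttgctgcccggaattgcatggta
INSR: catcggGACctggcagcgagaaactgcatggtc
The stretch lies in coding exon sequence at chr12:56097818-56097850 on the plus strand for ERBB3 and at chr17:39725082-39725114 on the plus strand for ERBB2. It lies at chr7:55191752-55191784 (plus) for EGFR, chr15:98939300-98939332 (plus) for IGF1R and chr19:7122642-7122674 (minus) for INSR. In MET (chr7:116782069-116783307, plus) and TYRO3 (chr15:41573083-41573311, plus) an intron divides it. Of the 9 receptors whose loop was read, 8 have an aspartate codon at the marked place and 1, ERBB3, has an asparagine codon. As background, ERBB3 has very weak kinase activity of its own and signals by pairing with ERBB2 or EGFR. ERBB3 and ERBB2 share 24 of the 33 bases, MET and TYRO3 share 26, and IGF1R and TYRO3 share 28.

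Levels are given in FPKM, fragments per kilobase of transcript, scaled for the size of the library, as the authors deposited them. How the libraries were scaled is not given. FPKM divides by length, so levels can be set side by side between genes. The table holds no read totals, so the depth is unknown and no counting interval is given. The targeted gene ZCCHC24 had 12.7, 12.3 and 13.2 FPKM in the controls and 1.54, 1.69 and 1.81 FPKM in the knockdown libraries, a mean of 13.2% of control. Libraries correlated at r of 0.986 to 0.988 within a group and 0.927 to 0.932 between groups across the tested genes. A change is the knockdown mean minus the control mean of log2(FPKM + 1), a scale that understates the change of weak genes, with the standard error of a limma fit over the 13343 genes whose mean was at least 1 FPKM. Adjusted p-values carry the Benjamini-Hochberg correction over those genes, and a gene is said to rise or fall only at an adjusted p below 0.05. Values after ± are SD over n = 3 libraries for levels, ratios and shares, and SE for log2 changes.

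The line expressed most melanocyte markers of the list used, and the breast epithelial markers at a lower summed level. Of 15 melanocyte markers 14 passed the filter, and the summed level of the list was 2909 to 2992 FPKM in the controls and 2146 to 2222 FPKM after knockdown. MITF, the master regulator of the lineage, had 183 ± 3.71 FPKM in the controls and 116 ± 3.39 FPKM after knockdown (SD, n = 3). Of 18 breast epithelial markers 10 passed, with a sum of 129 to 150 FPKM and 179 to 190 FPKM. Most of that sum came from KRT18, KRT8 and ESRP1, which rose, while KRT5, a basal keratin, was listed at 0 in all 6 libraries. ESR1, the estrogen receptor, was at 0.232 FPKM in the controls.

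MET, ERBB3 and TYRO3 changed after knockdown, MET upwards and the other two downwards. ERBB2, IGF1R and INSR were expressed and did not pass the test. FGFR1, EGFR, PDGFRB and KIT lay below 1 FPKM in every library and were not tested. In all, 6 of the 10 receptors were tested, of which 1 rose, 2 fell and 3 did not pass. Across all tested genes 72.4% were called, 37% as higher and 35.4% as lower. Of the 6 receptors tested 50% were called, and so few genes cannot set that share apart from the background. The median change of the 6 tested receptors was -0.01, and that of all tested genes was 0.01. In bulk RNA, a change in the number of cells that express a gene and a change in the RNA per cell cannot be told apart.

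**Figure D1:**
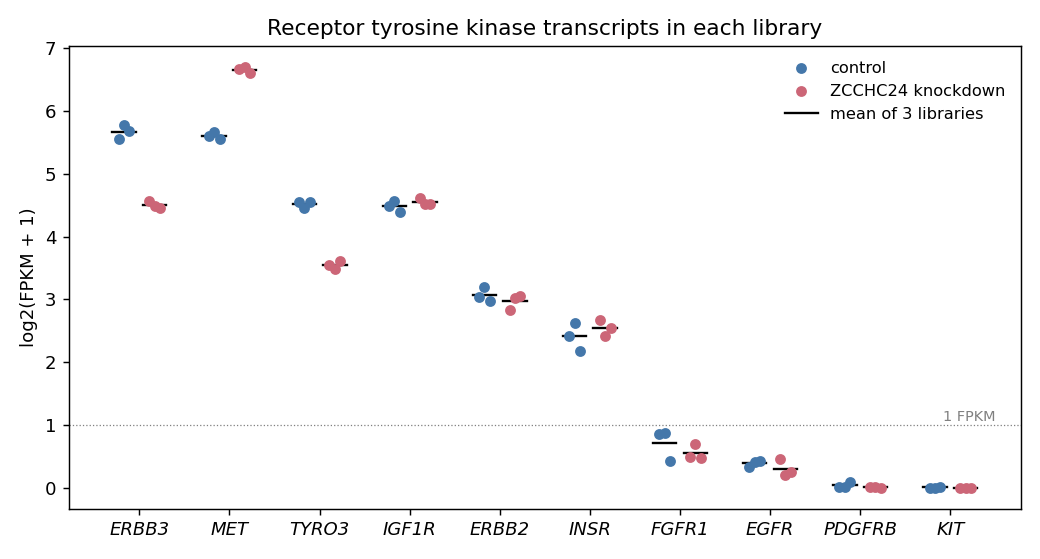
Level of each receptor transcript, as log2(FPKM + 1), in the 3 control and 3 knockdown libraries; points are libraries, bars are group means and the dotted line is 1 FPKM. The groups are separate for MET, ERBB3 and TYRO3, overlap for ERBB2, IGF1R and INSR, and lie below 1 FPKM for FGFR1, EGFR, PDGFRB and KIT.

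MET, the receptor of hepatocyte growth factor, was the member that rose. It had 47.8, 49.6 and 46.1 FPKM in the controls and 101, 103 and 96.9 FPKM in the knockdown libraries. Every knockdown library was above every control library, and the libraries of each group lay close together. The mean went from 47.8 ± 1.77 to 100.3 ± 3.16 FPKM (SD, n = 3), a ratio of 2.10. The log2 change was 1.05 ± 0.04 (SE), with a 95% confidence interval of 0.95 to 1.15 and a limma adjusted p of 4.0e-07. This absolute change was larger than that of 88.9% of the tested genes. The listed locus of MET (ENSG00000105976; hg19 chromosome 7, 116312443 to 116438440) held no other gene. HGF, its only known ligand, had control values of 0.0166, 0.00677 and 0 FPKM and stood at 0, 0 and 0.0455 FPKM after knockdown, so its message was near 0 in both groups.

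ERBB3, the neuregulin receptor with the asparagine codon, showed the largest change among the 6 tested. Its levels were 46.0, 53.7 and 50.4 FPKM in the controls and 22.8, 21.3 and 21.1 FPKM after knockdown. The groups did not overlap, and the mean fell to 43.4% of the control level, from 50.0 ± 3.86 to 21.7 ± 0.921 FPKM. On the log2 scale it changed by -1.17 ± 0.06 (95% confidence interval -1.31 to -1.02, limma adjusted p 1.4e-06). The listed locus (ENSG00000065361; hg19 chromosome 12, 56473640 to 56507691) also covers the neighbouring gene PA2G4, a regulator of growth that binds ERBB3. The PA2G4 row with the higher level rose, from 132 ± 2.93 to 153 ± 5.15 FPKM, so the neighbours moved in opposite directions. The melanocyte marker list was lower in the same libraries, with 9 of its 14 tested genes falling and 2 rising. Across all tested genes 35.4% were called lower and 37% higher. The part of the marker list in the change of ERBB3 was not tested.

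TYRO3, a receptor of the TAM family that binds protein S and GAS6, also fell. It had 22.5, 20.9 and 22.3 FPKM in the controls and 10.7, 10.2 and 11.3 FPKM after knockdown. The groups did not overlap, and the mean went to 48.9% of control, from 21.9 ± 0.873 to 10.7 ± 0.551 FPKM. The log2 change was -0.97 ± 0.06 (95% confidence interval -1.10 to -0.83, limma adjusted p 2.4e-06). TYRO3 (ENSG00000092445; hg19 chromosome 15, 41849872 to 41871536) shared its listed locus with no other gene. It was by far the most abundant TAM receptor in these cells. AXL was at 0.304, 0.283 and 0.315 FPKM in the controls and 0.0319, 0.0440 and 0.0394 FPKM after knockdown, and MERTK was at or below 0.0606 FPKM everywhere. AXL did not pass the filter on low values. When all genes with any signal were fitted, it was lower by a log2 change of -0.32 ± 0.03 (limma adjusted p 0.00023), and its groups did not overlap. The ratio of TYRO3 to AXL in FPKM was 72.9 ± 1.64 in the controls and 284 ± 53.1 after knockdown, with no overlap. Its log2 value changed by -0.64 on FPKM + 1 and by 0.51 on FPKM + 0.1 (exact two-sided permutation p 0.1 each, the smallest possible; 0.167 adjusted over the 5 ratios compared on FPKM + 1), so a pseudocount of 1 gives the sign opposite to that of the unpadded ratio.

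ERBB2, the preferred partner of ERBB3 and a receptor with no known ligand of its own, did not pass the test. Its levels were 7.25, 8.13 and 6.88 FPKM in the controls and 6.13, 7.15 and 7.31 FPKM after knockdown, and the groups overlapped. The log2 change was -0.10 ± 0.09 with a 95% confidence interval of -0.30 to 0.11 (limma adjusted p 0.34), so a fall as large as that of ERBB3 lies outside the interval. The ratio of ERBB3 to ERBB2 was 6.35, 6.61 and 7.33 in the controls and 3.71, 2.99 and 2.88 after knockdown. Every knockdown ratio was below every control ratio. The log2 ratio, computed on FPKM + 1, changed by -1.07, with an exact two-sided permutation p of 0.1, the smallest that 3 against 3 libraries allow. It was 1 of 5 ratios compared, and the p adjusted over the 5 was 0.167. The listed locus of ERBB2 (ENSG00000141736; hg19 chromosome 17, 37827374 to 37887040) also covers MIEN1 and PGAP3, which rose by 0.25 and 0.22 on the log2 scale.

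EGFR, the founding member of that family, was nearly absent. Its control values were 0.252, 0.334 and 0.348 FPKM, and the knockdown libraries had 0.369, 0.147 and 0.190 FPKM. The groups overlapped and all 6 libraries lay below 1 FPKM. Fitted without the filter, its log2 change had a 95% confidence interval of -0.28 to 0.10 (limma adjusted p 0.45). The fourth family member, ERBB4, was also weak and varied among replicates, at 0.593, 0.309 and 0.0299 FPKM in the controls and 0.572, 0.0868 and 0.0623 FPKM after knockdown.

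IGF1R and INSR, the receptors of insulin-like growth factors and of insulin, are close relatives that can form hybrids, and neither passed. IGF1R had 21.4, 22.7 and 20.0 FPKM in the controls and 23.6, 22.0 and 22.0 FPKM after knockdown. INSR had 4.36, 5.19 and 3.53 FPKM in the controls and 5.34, 4.31 and 4.84 FPKM after knockdown. Groups overlapped for both. The log2 change was 0.07 ± 0.06 for IGF1R (95% confidence interval -0.06 to 0.21, limma adjusted p 0.29). For INSR it was 0.13 ± 0.13, and the wider interval of -0.16 to 0.42 (limma adjusted p 0.38) went with a spread between controls of 19.0% of the mean, against 6.51% for IGF1R. The ratio of INSR to IGF1R was 0.203 ± 0.0257 in the controls and 0.214 ± 0.0162 after knockdown (exact two-sided permutation p 0.7). The locus listed for IGF1R (ENSG00000140443; hg19 chromosome 15, 99192199 to 99675798) also covers SYNM, an intermediate filament gene, which fell from 85.2 ± 1.31 to 55.4 ± 0.277 FPKM.

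FGFR1 was below 1 FPKM, and PDGFRB and KIT were at or near 0. FGFR1, a fibroblast growth factor receptor, had 0.815, 0.822 and 0.348 FPKM in the controls and 0.395, 0.616 and 0.382 FPKM after knockdown, with overlapping groups. PDGFRB, a platelet-derived growth factor receptor typical of mesenchymal cells, did not exceed 0.0606 FPKM in any library and was listed at 0 in knockdown 3. Its groups did not overlap, but the lowest control (0.00711 FPKM) and the highest knockdown library (0.00655 FPKM) were both near 0. KIT, the stem cell factor receptor of melanoblasts, was listed at 0 in 5 of the 6 libraries and at 0.0103 FPKM in control 3. Fitted without the filter, none of the 3 passed, with limma adjusted p of 0.44 for FGFR1, 0.45 for PDGFRB and 0.85 for KIT. A value of 0 in such a table can also be a failed estimate.

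The order of the receptors by level differed between the groups. In the controls ERBB3 and MET stood first with overlapping ranges, of 46.0 to 53.7 and 46.1 to 49.6 FPKM. TYRO3 and IGF1R followed, also overlapping, and ERBB2 and INSR came next, separate from their neighbours. After knockdown MET alone stood first, at 4.45 times the level of IGF1R. IGF1R and ERBB3 overlapped at the second place (22.0 to 23.6 and 21.1 to 22.8 FPKM), ahead of TYRO3, ERBB2 and INSR. In both groups FGFR1 and EGFR came after INSR, and PDGFRB and KIT overlapped at the bottom.

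Summed over the 10 receptors, the level was 153.9 ± 6.53 FPKM in the controls and 168 ± 3.28 FPKM after knockdown, so the make-up changed more than the total. MET supplied 31.1% ± 0.586 of the sum in the controls and 59.8% ± 1.09 after knockdown. ERBB3 went from 32.5% ± 1.64 to 12.9% ± 0.386 and TYRO3 from 14.3% ± 1.14 to 6.40% ± 0.433. IGF1R stayed near its share, with 13.9% ± 0.505 and 13.4% ± 0.398. These shares are descriptions of the same values and were not tested. Over all tested genes the summed level was 715474 to 731522 FPKM in the controls and 679614 to 694548 FPKM after knockdown.

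**Figure D2:**
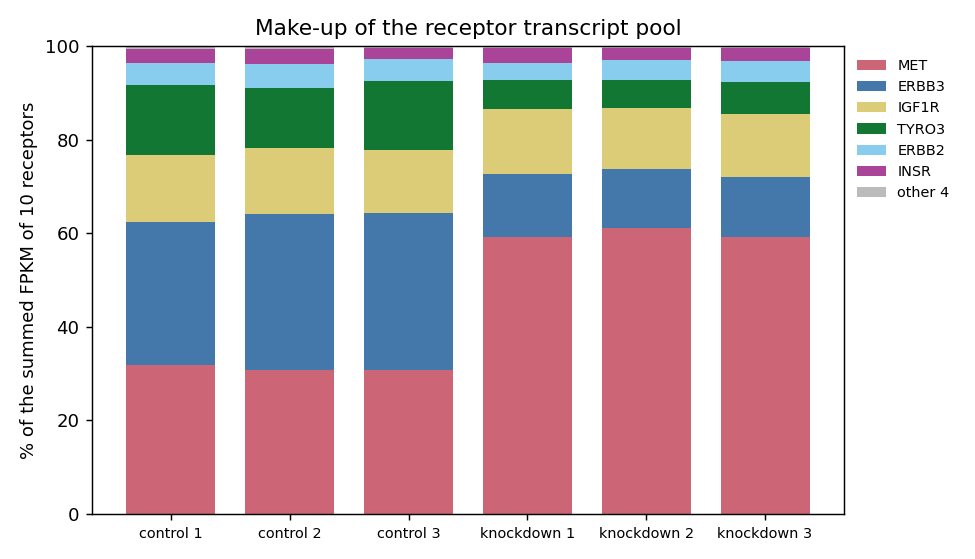
Share of each receptor, in percent, of the summed FPKM of the 10 receptors in each of the 6 libraries; FGFR1, EGFR, PDGFRB and KIT are drawn together. MET takes 30.7% to 31.8% of the sum in the control libraries and 59.1% to 61.1% in the knockdown libraries.

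Most other receptor tyrosine kinases lay below the filter. Of 48 on the list 11 were tested, and among these 9 fell, 1 rose and 1 missed the threshold (median change -0.62). The share of tested genes called lower in the whole table was 35.4%. PTK7, a receptor of planar cell polarity, fell from 3.44 ± 0.200 to 1.07 ± 0.433 FPKM, and ROR1, a WNT5A receptor, from 4.20 ± 0.271 to 1.81 ± 0.203 FPKM. The collagen receptor DDR2 fell from 28.8 ± 0.727 to 18.1 ± 0.935 FPKM. Among Eph receptors, which bind ephrins on neighbouring cells, EPHB4 fell from 37.2 ± 0.833 to 19.2 ± 0.524 FPKM and EPHA3 from 51.2 ± 3.05 to 32.4 ± 1.58 FPKM. RYK, a WNT receptor and the most abundant of the list, fell from 62.3 ± 6.47 to 50.3 ± 0.519 FPKM. The rise was that of LMTK2, a membrane kinase of endosomal traffic, from 9.49 ± 0.358 to 15.2 ± 0.667 FPKM. Over all 58 receptors, 17 were tested, 11 fell, 2 rose and 4 did not pass, and MET had the larger of both rises.

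**Figure D3:**
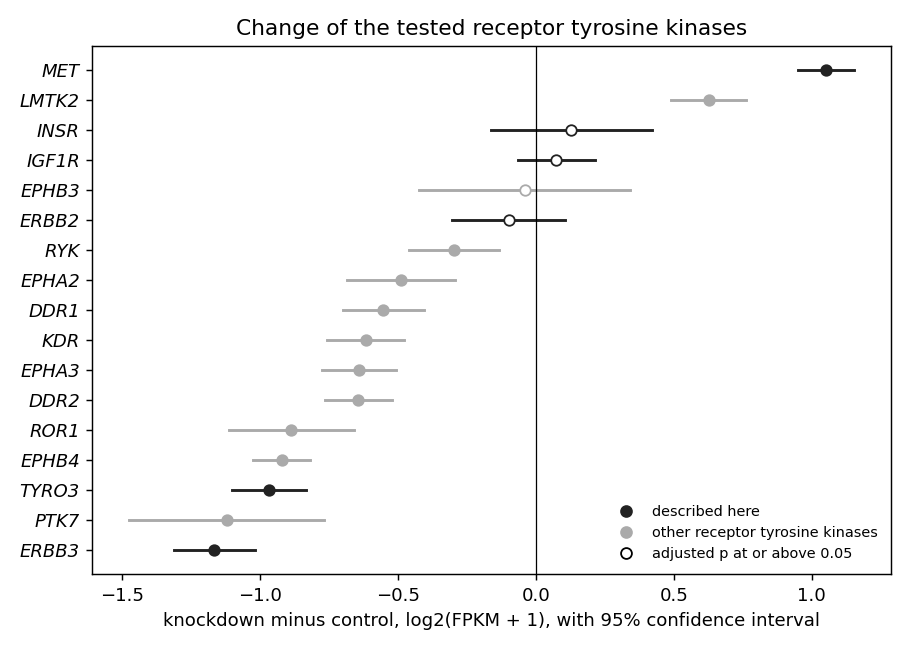
Change of the 17 tested receptor tyrosine kinases, knockdown minus control on log2(FPKM + 1), with 95% confidence intervals from limma; black marks the receptors described here, grey the others, and open circles an adjusted p at or above 0.05. MET (1.05) and LMTK2 (0.63) lie to the right of 0 with their intervals, and 11 receptors lie to the left, ERBB3 (-1.17) farthest on this scale. As a share of the control mean PTK7 fell further, to 31.0% against 43.4% for ERBB3.

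Most genes on the list of ligands were weak or not detected as messages. The list includes FGF7 and PDGFA, which act mainly on receptors outside the 10. Of its 36 genes 7, including FGF7, passed the filter, of which 2 rose, 3 fell and 2 missed the threshold (median change -0.06). Their share called, 71.4%, was near the 72.4% of all tested genes. HBEGF, a ligand of EGFR and ERBB4, rose from 6.07 ± 0.234 to 10.9 ± 0.129 FPKM (log2 change 0.75, limma adjusted p 1.0e-05). FGF2, a ligand of FGFR1, fell from 4.14 ± 0.378 to 2.14 ± 0.0103 FPKM. FGF1, another ligand of FGFR1, had 0.176, 0.787 and 0.0264 FPKM in the controls and 1.43, 1.87 and 1.52 FPKM after knockdown. The groups did not overlap, but its mean over all libraries, 0.968 FPKM, lay just under the filter. Fitted without the filter, FGF1 was higher by 1.01 ± 0.22 on the log2 scale (limma adjusted p 0.012). PROS1, which encodes protein S and acts on TYRO3, was the most abundant ligand and fell from 73.7 ± 5.97 to 57.1 ± 2.36 FPKM, whereas GAS6 did not exceed 0.161 FPKM in any library. KITLG, the ligand of KIT, fell from 12.3 ± 0.759 to 8.93 ± 0.718 FPKM. Of the neuregulins, NRG1 was at 0.0426, 0.0250 and 0.120 FPKM in the controls and listed at 0 after knockdown. NRG2 was higher, at 1.72 ± 0.354 against 1.07 ± 0.212 FPKM (log2 change 0.39, limma adjusted p 0.036). The call of NRG2 was lost without control 2 (adjusted p 0.095), control 3 (0.073), knockdown 1 (0.11) or knockdown 2 (0.052) and without the filter (0.072), so the count of ligands that rose went from 2 to 1 when any of these 4 libraries was left out.

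Genes that control ligand access and shedding changed in both directions. Of 29 genes 21 were tested; 11 fell, 3 rose and 7 missed the threshold (median change -0.26). The share called in either direction was 66.7%, against 72.4% of all tested genes. Syndecans and glypicans are cell surface proteoglycans that present heparin-binding ligands to their receptors. SDC1 (syndecan-1) fell 4.80-fold, from 19.3 ± 1.23 to 4.03 ± 0.0376 FPKM (log2 change -2.01, limma adjusted p 1.6e-07). SDC2 fell from 19.1 ± 2.13 to 8.19 ± 1.28 FPKM and GPC1 (glypican-1) from 28.2 ± 0.516 to 12.9 ± 1.41 FPKM. SDC4 rose from 32.1 ± 0.482 to 37.2 ± 0.779 FPKM. ADAM15, a membrane metalloprotease, fell from 53.0 ± 1.81 to 22.5 ± 0.716 FPKM. The sheddase ADAM10 rose to 99.3 ± 7.77 from 81.4 ± 3.44 FPKM, while ADAM17 did not pass (log2 change -0.03, limma adjusted p 0.61).

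Among 29 inhibitors and turnover factors of receptors, 27 were tested, of which 10 rose, 7 fell and 10 missed the threshold (median change 0.03). Their share called in either direction, 63%, was below the 72.4% of all tested genes. ERRFI1 (MIG6), which binds and blocks the kinase domain of EGFR family members, had 30.6, 30.6 and 29.5 FPKM in the controls and 90.2, 92.0 and 87.9 FPKM after knockdown. CBLB, a ubiquitin ligase that marks activated receptors for degradation, had 10.4, 10.2 and 10.7 FPKM in the controls and 29.9, 30.5 and 27.9 FPKM after knockdown. The groups did not overlap for either, and both rose, by 1.54 ± 0.04 and 1.41 ± 0.05 on the log2 scale (limma adjusted p 9.6e-08 and 2.8e-07). CBL, the close relative of CBLB, did not pass (0.11 ± 0.06, limma adjusted p 0.16). USP8, a deubiquitinase of endocytosed receptors, rose from 37.8 ± 1.20 to 68.0 ± 9.29 FPKM. RNF41, the ubiquitin ligase that acts on ERBB3, rose from 26.4 ± 0.733 to 30.8 ± 0.655 FPKM. LRIG1, a membrane inhibitor of EGFR family receptors and MET, fell from 7.57 ± 0.333 to 3.66 ± 0.551 FPKM.

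Adaptors and effectors that bind activated receptors changed in both directions. Of 34 genes 28 were tested, of which 14 rose, 11 fell and 3 missed the threshold (median change 0.11). Calls in either direction made up 89.3% of the tested adaptors and effectors, against 72.4% of all tested genes. SOS1, the exchange factor that activates RAS, rose from 12.0 ± 1.12 to 27.8 ± 3.81 FPKM, and its adaptor GRB2 from 58.8 ± 5.90 to 91.2 ± 5.70 FPKM. FRS2, the docking protein of fibroblast growth factor receptors, rose from 6.06 ± 0.501 to 13.4 ± 1.66 FPKM although FGFR1 was below 1 FPKM. GAB2, a docking protein that recruits PI3K, fell from 28.4 ± 1.10 to 14.9 ± 1.25 FPKM, and DOK1, a docking protein that restrains RAS, from 8.64 ± 0.657 to 4.02 ± 0.442 FPKM.

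In the RAS-ERK and PI3K-AKT core, 30 of 31 genes were tested, of which 17 rose, 7 fell and 6 missed the threshold (median change 0.21). Called genes made up 80% of those tested, against 72.4% of all tested genes, 37% higher and 35.4% lower. AKT1, a kinase downstream of PI3K, had 106, 99.9 and 97.1 FPKM in the controls and 57.1, 51.6 and 55.0 FPKM after knockdown. The groups did not overlap, and AKT1 fell 1.85-fold (limma adjusted p 2.0e-06). RICTOR, a subunit of the mTORC2 complex that phosphorylates AKT, rose from 4.96 ± 0.749 to 18.0 ± 1.69 FPKM.

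**Figure D4:**
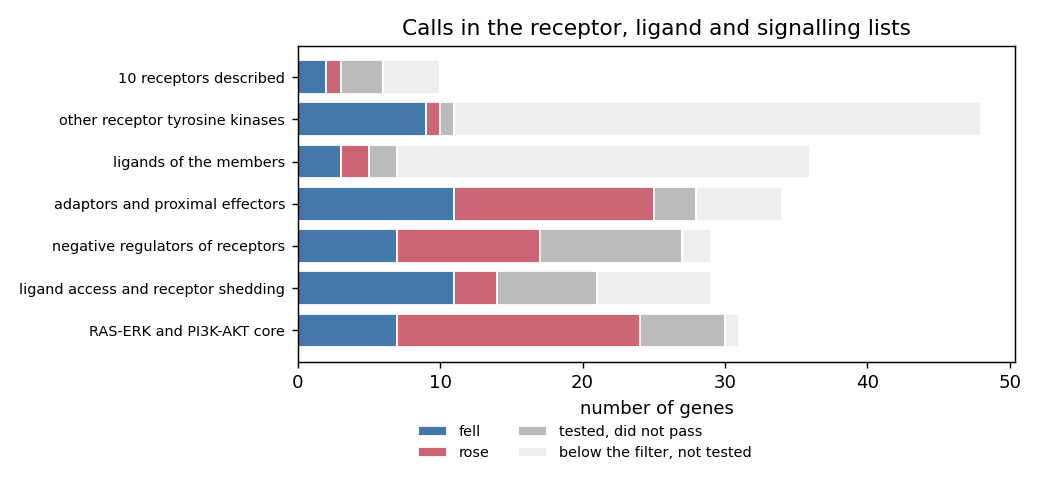
Number of genes in each list that fell, rose, did not pass at an adjusted p of 0.05, or lay below the filter of 1 FPKM. Falls outnumber rises among the other receptors (9 and 1) and the ligand access genes (11 and 3), and rises outnumber falls in the RAS-ERK and PI3K-AKT core (17 and 7). Of all tested genes, 35.4% fell and 37% rose.

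Groups did not overlap for 3 of the 6 tested receptors, MET, ERBB3 and TYRO3, against 75.9% of all tested genes. A called change of at least 1 on the log2 scale was found in 12.1% of tested genes and in 2 of the 6 receptors, MET and ERBB3. TYRO3 lay just under that size, with a log2 change of -0.97 on FPKM + 1 and of -1.02 on FPKM + 0.1. Among the 207 genes of the 6 accompanying lists, the profile nearest to that of MET over the 6 libraries was that of FRS2, at a Euclidean distance of 0.23 on log2(FPKM + 1) after subtracting the control mean. The profiles nearest to ERBB3 were those of ADAM15 (0.27) and GPC1 (0.34). These distances mainly record the size of the difference between the groups.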

How the data were processed

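The authors deposited FPKM values, per the file headers, in a table whose 6 value columns each belong to a library. The submitters' processing notes name hg19 as the build and TopHat 1.4.1 and Cuffdiff 2.2.0 as tools, without roles. The sources used here give no annotation, filter or scaling step. Library preparation used a stranded mRNA kit and 1 ug of input RNA, per the labels' protocols. Strand use in counting is not given, so overlapping antisense genes cannot be told apart.

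Columns were matched to samples by title, and 1 blank row was left out. Genes whose mean reached 1 FPKM were fitted on log2(FPKM + 1) with limma 3.58.1 in R 4.3.3 (empirical Bayes with a mean-variance trend, two-sided, Benjamini-Hochberg, threshold 0.05), without a replicate block. Ratios were compared by exact permutation of libraries. The fit was tested on simulated data in which far fewer genes changed than were called here. That test therefore does not show how the fit performs when most genes change. Lists were matched by symbol; for 2 repeated symbols (PIK3R2 and MIA) the row with the higher mean was used. Genes were named by rule: the 10 receptors, ZCCHC24, the 4 largest called changes of each list (6 for other receptors), the 3 most abundant other receptors, the ligands of a named receptor and the 2 nearest profiles; others (genes of a shared locus, ERBB4, KRT18, KRT8, KRT5, ESRP1, ESR1, MITF, ADAM10, ADAM17, SDC4, CBL, RNF41 and GRB2) were chosen after their values were seen. Some genes that the rule names are not reported here. The members and lists were chosen with earlier results of these data known. The refits used median scaling, a replicate block, quality weights for samples, a pseudocount of 0.1, a mean of at least 5 FPKM, no filter at all, or 1 library fewer.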

Additional observations from a re-analysis of the deposited data

How the results depend on the processing

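Over the 12 refits, 1 receptor rose and 2 fell in each; MET ranged from 1.03 to 1.082, ERBB3 from -1.22 to -1.11 and TYRO3 from -1.02 to -0.93, with a highest limma adjusted p of 5.7e-05. Of 403 values for 34 named genes, 398 kept direction and side of the threshold and 5, all of NRG2, missed it. Ligands that rose numbered 1 at 5 FPKM, where NRG2 is not tested, 1 to 2 with a library left out, and 3 without the filter or with median scaling. With a pseudocount of 0.1 the log2 ratio of TYRO3 to AXL turned from -0.64 to 0.51 and that of EGFR to ERBB2 from 0.01 to -0.23, since the pseudocount sets the value of genes near 0. With a library left out the ratio of EGFR to ERBB2 ran from -0.136 to 0.087, that of INSR to IGF1R from -0.015 to 0.12, that of TYRO3 to AXL from -0.68 to -0.60 and that of TYRO3 to MERTK, -0.93 in all libraries, from -0.96 to -0.90. The labels do not say whether replicate numbers pair the libraries, and deviations of same-numbered libraries correlated at -0.03, -0.07 and 0.02. The replicate block called 4971 genes higher and 4773 lower, against 4937 and 4730 without it, and changed no call of a receptor. The unknown depth gives no limit of detection for KIT, PDGFRB or HGF.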
